A study of Homo sapiens with 9 samples.

Results

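Integrins are the receptors through which cells hold on to the extracellular matrix, and the mRNAs of 10 integrin subunits were followed in ES-2 cells, an established human cell line derived from an ovarian carcinoma. The 10 subunits are the alpha chains ITGA2, ITGA3, ITGA5, ITGA6 and ITGAV and the beta chains ITGB1, ITGB3, ITGB4, ITGB5 and ITGB8. They were picked by name from the 58174 genes of the deposited tables, by a rule with no threshold on their values but with earlier results of these data known, and each was found once in both tables. Cells were transfected with control siRNA (siC), with an siRNA pool against the mRNA-binding protein IGF2BP1 (siIGF2BP1) or with one against the transcription factor SRF (siSRF), and total RNA was collected after 72 h from 3 libraries per group. The cells of all groups were otherwise unmodified ES-2 cells kept in serum-containing medium, so the values describe transient, incomplete depletion in a single cell line. Nothing in the labels says that the 3 libraries of a group came from separate cultures, and p-values then measure only the spread between these libraries. The study asked which mRNAs depend on IGF2BP1 and which of them also depend on SRF, and the comparisons here put that question to the integrin subunits and to the balance between alpha and beta partners.

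An integrin is a heterodimer of an alpha and a beta chain, which assemble in the endoplasmic reticulum before they reach the cell surface, so the amount of a receptor is limited by both chains. ITGB1 is the common partner of the collagen receptor chain ITGA2, the laminin receptor chains ITGA3 and ITGA6, the fibronectin receptor chain ITGA5 and, in part, ITGAV. ITGAV also pairs with ITGB3, ITGB5 and ITGB8 in receptors for vitronectin, fibronectin and latent TGF-beta, whereas ITGB4 pairs with ITGA6 in the hemidesmosomes of epithelial cells.

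The mRNAs were measured as FPKM, fragments per kilobase of gene length and per unit of sequencing depth, which the authors scaled between libraries by TMM factors. Between 6421764 and 9416175 reads were counted on genes per library. The IGF2BP1 mRNA stood at 12.8, 13.5 and 12.1 FPKM in siC and at 4.18, 4.14 and 4.02 FPKM in siIGF2BP1, 32.2% of the siC mean. SRF mRNA stood at 13.6, 14.1 and 16.0 FPKM in siC and at 1.63, 1.36 and 1.42 FPKM in siSRF, 10.1% of the siC mean, and it was also lower in siIGF2BP1, at 5.80, 5.42 and 6.80 FPKM. IGF2BP1 mRNA in siSRF was at 13.7, 14.6 and 14.4 FPKM, so the pair of knockdowns overlap in SRF but not in IGF2BP1. The cells carried keratin and vimentin mRNAs, some of which moved with the conditions. KRT7 had group means of 101, 152 and 127 FPKM in siC, siIGF2BP1 and siSRF and was called higher in both knockdowns (log2 fold changes 0.59 and 0.33, limma-trend adjusted p = 0.00142 and 0.00402). KRT8 and the mesenchymal cadherin CDH2 were called higher in siIGF2BP1 (0.55 and 0.66, adjusted p = 0.00455 and 0.00282), KRT18 was called higher in siSRF (0.91, adjusted p = 3.3e-04) and vimentin, VIM, lower there (-0.31, adjusted p = 0.00910). The mesenchymal marker FN1 was called lower in siIGF2BP1 and in siSRF (-0.80 and -1.36, adjusted p = 0.00267 and 3.3e-04). VIM and KRT18 were not called in siIGF2BP1 (-0.26 and -0.07, adjusted p = 0.0400 and 0.777). Summed over the 6 epithelial markers the FPKM ranged from 149 to 161 in siC, 192 to 220 in siIGF2BP1 and 216 to 222 in siSRF, while EPCAM and CDH1 did not exceed 0.259 and 0.0355 FPKM. The ovarian markers PAX8 and WT1 stayed below 0.262 and 0.198 FPKM and MUC16 was listed at 0 in all 9 libraries. Of the leukocyte markers PTPRC and CD3E were listed at 0 in every library. Among endothelial markers PECAM1, VWF and KDR did not exceed 0.387 FPKM, but CDH5 was present, with group means of 9.38, 15.2 and 7.93 FPKM in siC, siIGF2BP1 and siSRF. The part of the cells or cell states behind these markers in the integrin values was not tested, and in a bulk library fewer expressing cells and less RNA per cell cannot be told apart.

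In siC cells the integrin mRNA pool was led by ITGB1 and the laminin receptor chains. On the FPKM scale the order of the group means was ITGB1 (82.8), ITGA3 (66.6), ITGA6 (42.8), ITGB5 (30.1), ITGA5 (11.0), ITGAV (7.40), ITGA2 (5.92), ITGB8 (2.20), ITGB3 (0.518) and ITGB4 (0). Within siC every member lay above the next one in all 3 libraries, also where neighbours were close, as for ITGB1 and ITGA3, whose means differed 1.24-fold. The levels of different genes depend on the gene length that was used, which was 6011 bases for ITGB1 and 9802 bases for ITGA3 in the tables against 3735 and 4889 bases in the canonical transcripts, so that the order of close neighbours is less firm than the differences between conditions. ITGB4 was covered by 0 reads in each siC library, by 2, 0 and 1 reads in siIGF2BP1 and by 2, 1 and 0 reads in siSRF. A count of 0 allows up to 3 reads, or 0.0614 to 0.0672 FPKM in the siC libraries, counting error only. ITGB4 thus stood at 0 to 2 reads in every library, where no difference between groups was detectable, was left out by the filter on low values, and gave neither a fold change nor a ratio to ITGA6. The other 9 members were tested.

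**Figure D1:**
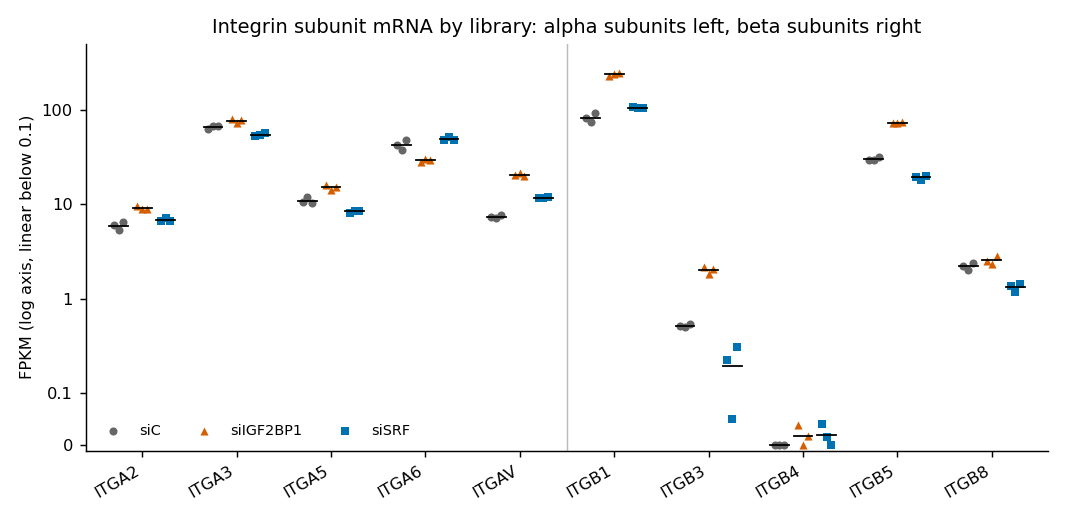
FPKM of the 10 integrin subunits in each of the 9 libraries (points, 3 per group) with group means (bars), on a log axis that is linear below 0.1 FPKM, for siC, siIGF2BP1 and siSRF. ITGB1, ITGAV, ITGB3, ITGB5, ITGA2, ITGA3 and ITGA5 stand higher in all siIGF2BP1 libraries than in all other libraries, ITGA6 stands lowest there, and ITGB4 stays at or near 0 throughout.

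Upon IGF2BP1 depletion, the mRNAs of the common beta chain ITGB1, of ITGAV and of the ITGAV partners ITGB3 and ITGB5 rose between 2.42-fold and 3.89-fold, whereas the laminin receptor chain ITGA6 fell. Of the 9 members tested, 6 rose and 1 fell at an adjusted p of at most 0.01, beside 3.55% of all 22292 tested genes that rose and 3.57% that fell (limma-trend on log2(FPKM + 0.1), adjusted over all tested genes by Benjamini-Hochberg). The median log2 fold change was 0.62 over the members tested and 0.02 over all tested genes. When only the 13888 genes averaging at least 10 reads were fitted, 1339 rose and 1421 fell, among them 6 and 1 of the members. That setting was chosen after the data were seen. In 7 members all siIGF2BP1 libraries lay above all siC libraries and in 1 member all lay below, beside 18.1% and 17.6% of all tested genes. For any single gene the two-sided exact permutation test cannot go below p = 0.1 with 3 libraries against 3.

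ITGB1, the partner of most alpha chains in these cells, stood at 81.1, 75.3 and 92.0 FPKM in siC and at 229, 239 and 247 FPKM in siIGF2BP1. The groups were far apart, with means of 82.8 ± 8.51 and 239 ± 8.88 FPKM (SD, n = 3), which gives 1.53 as log2 fold change (standard error 0.0796, adjusted p = 2.4e-04). A 609-base processed pseudogene, ITGB1P1 (chromosome 19, 14621634 to 14622242, minus strand), is identical to an ITGB1 transcript over its whole length, so reads from this stretch cannot be assigned to one of them. ITGB1P1 held 5.82% to 7.48% of the reads counted on the pair in a library. With the reads of the pair added, the siIGF2BP1 mean was 2.88-fold that of siC, the same as for ITGB1 alone.

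ITGAV, the alpha chain of the vitronectin receptors, stood at 7.27, 7.17 and 7.76 FPKM in siC and at 20.5, 21.3 and 19.8 FPKM in siIGF2BP1. Its log2 fold change of 1.46 (standard error 0.0581, adjusted p = 1.3e-04) differed little from that of ITGB1. ITGB5, a vitronectin receptor chain that pairs with ITGAV, stood at 29.5, 29.3 and 31.7 FPKM in siC and at 73.0, 71.9 and 74.2 FPKM upon IGF2BP1 depletion (log2 fold change 1.28, standard error 0.0453, adjusted p = 1.0e-04). These 3 rises passed the threshold under all 19 alternative settings, whose adjusted p reached at most 0.00841.

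ITGB3, which pairs with ITGAV in a vitronectin receptor, was scarce in siC at 0.517, 0.502 and 0.535 FPKM, which is 15, 15 and 17 reads. It stood at 2.17, 1.81 and 2.07 FPKM, or 73, 58 and 77 reads, in siIGF2BP1. The means differed 3.89-fold (log2 fold change 1.77, standard error 0.184, adjusted p = 0.00212), the highest fitted value among the members, but with a pseudocount of 1 FPKM it was 0.99, below the 1.52 of ITGB1. ITGB3 remained the lowest of the 9 members in siIGF2BP1 too. Its call was lost without the siIGF2BP1 library 1, 2 or 3 (adjusted p = 0.0141, 0.0111 and 0.0173), when the fit had fewer libraries. It was also lost in a fit of all 9 libraries (adjusted p = 0.0107) and, with no library left out, with the replicate block (adjusted p = 0.0247).

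The collagen receptor chain ITGA2 stood at 6.01, 5.28 and 6.47 FPKM in siC and at 9.55, 8.91 and 8.87 FPKM in siIGF2BP1 (log2 fold change 0.62, standard error 0.0908, adjusted p = 0.0070). ITGA5, which with ITGB1 forms the main fibronectin receptor, stood at 10.6, 11.8 and 10.4 FPKM in siC and at 15.9, 14.1 and 15.2 FPKM in siIGF2BP1 (log2 fold change 0.46, standard error 0.0747, adjusted p = 0.00997). Both rises were smaller than those of ITGB1 and ITGAV, and their groups did not overlap. ITGA6, the laminin receptor chain, went the other way, with 42.5, 38.1 and 47.8 FPKM in siC and 27.9, 30.2 and 29.7 FPKM in siIGF2BP1 (log2 fold change -0.54, standard error 0.0874, adjusted p = 0.00981). The calls of these 3 genes lay close to the threshold. Without any 1 of the 6 libraries the adjusted p was 0.0125 to 0.0313 for ITGA2 and 0.0146 to 0.0463 for ITGA5, and for ITGA6 it was 0.0185 to 0.0411 except without siC library 2, where the call held. With a pseudocount of 1 FPKM neither ITGA5 nor ITGA6 passed (adjusted p = 0.0102 for both).

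The second laminin receptor chain, ITGA3, stood at 63.3, 68.2 and 68.1 FPKM in siC and at 80.3, 73.2 and 78.2 FPKM in siIGF2BP1. The siIGF2BP1 libraries were all higher, but the log2 fold change of 0.21 (95% interval 0.08 to 0.35) did not pass the threshold (adjusted p = 0.0443). It did with limma-voom on the reads (adjusted p = 9.8e-04) and with GC content and gene length trends taken out (adjusted p = 0.00215), a setting chosen after the data were seen. ITGB8, which with ITGAV binds latent TGF-beta, stood at 2.22, 2.02 and 2.36 FPKM in siC and at 2.50, 2.34 and 2.83 FPKM in siIGF2BP1. These groups overlapped and the log2 fold change was 0.21 (95% interval -0.11 to 0.52, adjusted p = 0.361).

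Upon SRF depletion the members moved in different directions. ITGAV rose and ITGA3, ITGA5 and ITGB5 fell, 1 and 3 of the 9 members tested, beside 6.85% and 5.34% of all 21857 tested genes (limma-trend, adjusted p at most 0.01). The median log2 fold change was -0.29 over the members and 0.01 over all tested genes. When only the 13687 genes averaging at least 10 reads were fitted, 2229 rose and 1842 fell, among them 2 and 4 of the members. That setting was chosen after the data were seen. All siSRF libraries lay above all siC libraries in 4 members and below them in 5, beside 20.9% and 19.0% of all tested genes.

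ITGAV stood at 11.7, 11.7 and 12.0 FPKM in siSRF, above the 7.17 to 7.76 FPKM of siC (log2 fold change 0.66, standard error 0.0562, adjusted p = 8.3e-04). ITGB5 stood at 19.7, 18.1 and 19.9 FPKM in siSRF, below the 29.3 to 31.7 FPKM of siC (log2 fold change -0.65, standard error 0.0563, adjusted p = 9.1e-04). With trends along GC content and gene length taken out, a setting chosen after the data were seen, the log2 fold change of ITGAV was 0.39 (adjusted p = 0.00382) and that of ITGB5 -0.50 (adjusted p = 0.00189). The chains of the ITGAV/ITGB5 receptor thus changed in opposite directions, each with groups that did not overlap.

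ITGA5 stood at 8.14, 8.53 and 8.52 FPKM in siSRF (log2 fold change -0.38, standard error 0.0676, adjusted p = 0.00994), and ITGA3 at 52.9, 53.9 and 56.3 FPKM (log2 fold change -0.29, standard error 0.047, adjusted p = 0.00684). Both lay below every siC library, but neither call was firm. Without any 1 of the 6 libraries the adjusted p of ITGA5 was 0.0177 to 0.0420, and that of ITGA3 was 0.0170 to 0.0347 except without siC library 1, where the call held. With the same trends taken out, the log2 fold change of ITGA3 was -0.04 (adjusted p = 0.468) and that of ITGA5 was -0.23 (adjusted p = 0.0386).

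Of the members that were not called, ITGB1 stood at 108, 105 and 105 FPKM in siSRF (log2 fold change 0.36, 95% interval 0.18 to 0.54, adjusted p = 0.0173) and ITGB8 at 1.35, 1.19 and 1.44 FPKM (log2 fold change -0.69, 95% interval -1.05 to -0.33, adjusted p = 0.0185). Both groups lay apart from siC, ITGB1 above it and ITGB8 below it. Limma-voom called them (adjusted p = 1.6e-06 and 2.6e-06), as did limma-trend on genes averaging at least 10 reads (adjusted p = 0.00434 and 0.00349), a setting chosen after the data were seen, which made the calls 6 instead of 4. ITGB1 was also called without siC library 3 (log2 fold change 0.44, adjusted p = 0.00525). With GC content and gene length trends taken out the log2 fold change of ITGB1 was 0.17 (adjusted p = 0.0733) and that of ITGB8 -0.84 (adjusted p = 0.00720). ITGB3 was covered by 7, 2 and 10 reads in siSRF, or 0.223, 0.0499 and 0.309 FPKM, against 15 to 17 reads in siC (log2 fold change -1.19, 95% interval -2.31 to -0.07, adjusted p = 0.123). The size depends on so few reads, at -0.77 without siSRF library 2, -0.35 with a pseudocount of 1 FPKM and -1.75 by limma-voom, the setting that called it (adjusted p = 0.00381). ITGA6 at 48.6, 51.2 and 47.9 FPKM and ITGA2 at 6.66, 7.14 and 6.64 FPKM lay just above their siC libraries, with log2 fold changes of 0.21 (adjusted p = 0.143) and 0.20 (adjusted p = 0.177). For ITGA6 limma-voom passed the threshold (adjusted p = 0.00896), while with GC content and gene length trends taken out the values were 0.09 and 0.05 (adjusted p = 0.400 and 0.722).

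The difference between the knockdowns was tested directly, without the siC libraries that both comparisons share. All 9 members tested differed between siIGF2BP1 and siSRF, 8 being higher in siIGF2BP1 and ITGA6 lower, beside 8.82% and 11.2% of all 22311 tested genes (limma-trend, adjusted p at most 0.01). Among the beta chains the log2 differences were 2.96 for ITGB3 (standard error 0.415, adjusted p = 0.00249), 1.92 for ITGB5 (standard error 0.0455, adjusted p = 8.4e-06), 1.17 for ITGB1 (standard error 0.0389, adjusted p = 1.5e-05) and 0.90 for ITGB8 (standard error 0.144, adjusted p = 0.00438). The value of ITGB3 ranged from 1.34 with a pseudocount of 1 FPKM to 3.67 over the alternatives, and that of ITGB8 was 0.61 with this pseudocount, so the order of the members is not fixed. Among the alpha chains the log2 difference was 0.84 for ITGA5, 0.80 for ITGAV, 0.51 for ITGA3 and 0.41 for ITGA2, with adjusted p-values of 7.8e-05 to 0.00312, and -0.75 for ITGA6 (adjusted p = 1.1e-04). ITGA5 and ITGB5 rose in siIGF2BP1 and fell in siSRF, so their differences between the knockdowns were bound to exceed those from siC. ITGAV rose in both, and more in siIGF2BP1. The calls of ITGB8, ITGB3 and ITGA2 did not hold in every fit of 5 libraries. ITGB8 was lost without any 1 library (adjusted p = 0.0109 to 0.0211), ITGB3 without each siIGF2BP1 library (0.0114 to 0.0143), and ITGA2 without any but siSRF library 2 (0.0106 to 0.0148).

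**Figure D2:**
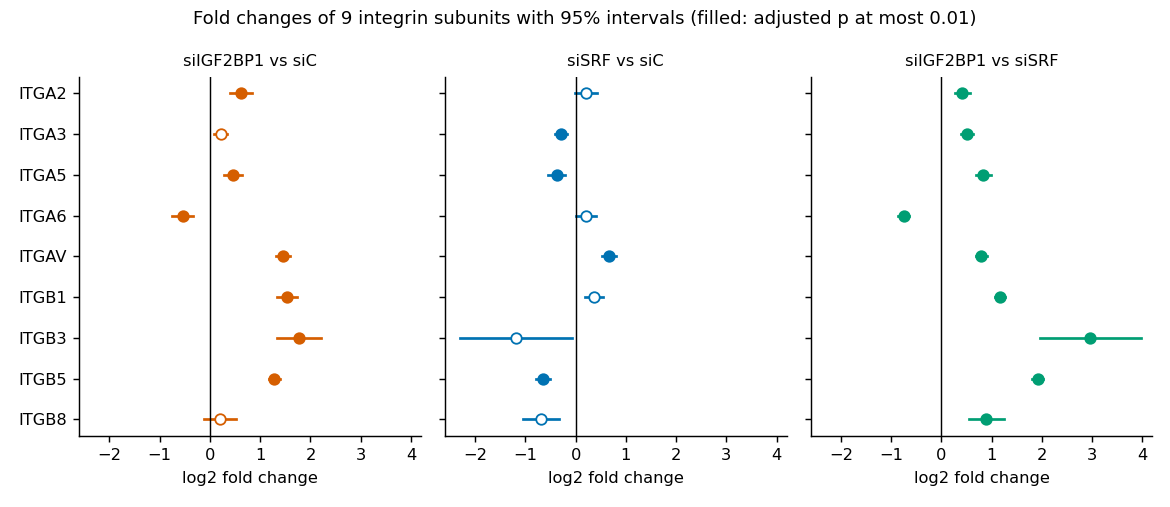
Log2 fold changes (points) of the 9 tested integrin subunits with 95% intervals (lines) in siIGF2BP1 against siC, siSRF against siC and siIGF2BP1 against siSRF, on a common axis. Filled points have a limma-trend adjusted p of at most 0.01, which holds for 7, 4 and 9 members.

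The balance of partners was read from the ratio of alpha to beta mRNA within each library, on the scale of log2(FPKM + 0.1). Of 9 pairs considered, 8 had a ratio, ITGA6/ITGB4 being left out. Upon IGF2BP1 depletion the ratio to ITGB1 was lower for 4 alpha chains, in every case with siIGF2BP1 libraries all below siC. The log2 differences were -2.07 (standard error 0.0261) for ITGA6, -1.32 (0.105) for ITGA3, -1.07 (0.153) for ITGA5 and -0.91 (0.0688) for ITGA2. In linear terms the ITGB1 mRNA was 1.93-fold the ITGA6 mRNA in siC and 8.15-fold in siIGF2BP1. These ratios share the ITGB1 value and are not independent of each other.

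The ITGAV to ITGB1 ratio gave no separation, with log2 values of -3.46, -3.37 and -3.55 in siC and of -3.48, -3.48 and -3.63 in siIGF2BP1, which overlap (difference -0.07, standard error 0.0725). The ratio of ITGAV to ITGB5 was -2.00, -2.02 and -2.01 in siC and -1.83, -1.75 and -1.90 in siIGF2BP1, a difference of 0.19 (standard error 0.0437). In single-gene fits with GC content and gene length trends taken out, the log2 fold changes were 1.27 for ITGAV and 1.32 for ITGB5. That setting was chosen after the data were seen. The direction of the small ITGAV to ITGB5 difference is thus not established. The ratio of ITGAV to ITGB8 was higher by 1.26 (standard error 0.113), at 1.67, 1.78 and 1.68 in siC and at 2.99, 3.13 and 2.77 in siIGF2BP1. The ratio of ITGAV to ITGB3 differed by -0.31 (standard error 0.101), but by 0.37 with a pseudocount of 1 FPKM, so that its direction is not established at these ITGB3 levels.

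In siSRF the ratio of ITGAV to each of its 4 beta partners was higher than in siC. It was higher by 1.31 (standard error 0.0367) to ITGB5, by 1.36 (0.0762) to ITGB8, by 1.86 (0.429) to ITGB3, which rests on 2 to 10 reads per siSRF library and was 0.96 with a pseudocount of 1 FPKM, and by 0.30 (0.0560) to ITGB1. In linear terms ITGB5 mRNA was 4.07-fold the ITGAV mRNA in siC, 3.56-fold in siIGF2BP1 and 1.63-fold in siSRF. ITGA5 and ITGA3 were lower against ITGB1, with differences of -0.74 (0.141) and -0.65 (0.0949), as were ITGA2 with -0.16 (0.0472) and ITGA6 with -0.15 (0.0370). Trends along GC content and gene length were not taken out of the ratios. For single genes in siSRF that setting moved ITGA3 from -0.29 to -0.04, ITGA5 from -0.38 to -0.23 and ITGB1 from 0.36 to 0.17. It moved ITGAV from 0.66 to 0.39, ITGB5 from -0.65 to -0.50 and ITGB8 from -0.69 to -0.84. The sizes of the siSRF ratios under it were not tested. Every pair in siSRF and 7 of 8 pairs in siIGF2BP1 had ratios that did not overlap with siC, but the pairs share ITGB1 or ITGAV, and single genes without overlap are common, 18.1% above and 17.6% below siC in siIGF2BP1 and 20.9% and 19.0% in siSRF. The two-sided exact permutation p was 0.1 in each of these pairs, the smallest that 3 libraries against 3 allow, and 0.107 after adjustment over 16 tests, so none can pass 0.05 in this design.

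**Figure D3:**
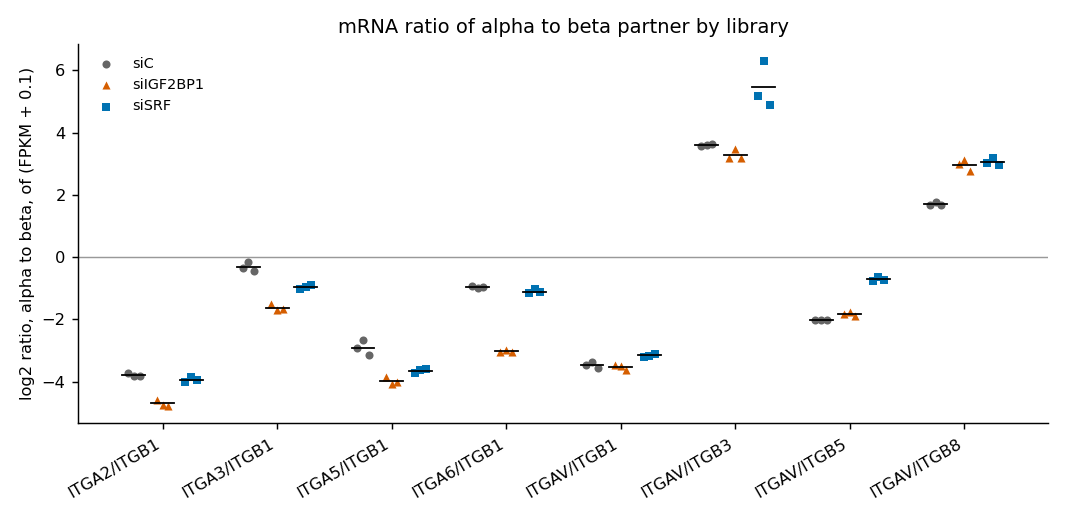
Log2 ratio of alpha to beta partner mRNA (FPKM + 0.1) for 8 pairs in each library (points, 3 per group) with group means (bars). Relative to siC, ITGA2, ITGA3, ITGA5 and ITGA6 are lower against ITGB1 in siIGF2BP1, ITGAV/ITGB1 overlaps with siC there, and ITGAV/ITGB5 is higher in siSRF.

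Summed over all subunits in the tables, beta chain mRNA differed from siC by more than alpha chain mRNA upon IGF2BP1 depletion. The summed FPKM of alpha chains was 152 ± 6.08 (SD, n = 3) in siC, 173 ± 2.15 in siIGF2BP1 and 149 ± 2.68 in siSRF. The summed FPKM of beta chains was 123 ± 9.76 in siC, 330 ± 10.1 in siIGF2BP1 and 131 ± 2.6 in siSRF. The beta sum per alpha sum was 0.806, 0.781 and 0.844 in siC, 1.84, 1.93 and 1.97 in siIGF2BP1, and 0.917, 0.852 and 0.873 in siSRF. Against the sum of the 12 alpha chains known to pair with it, ITGB1 mRNA stood at 0.561 ± 0.0369 in siC, 1.43 ± 0.0603 in siIGF2BP1 and 0.734 ± 0.024 in siSRF.

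The make-up of the pool differed as well. ITGA6 made up 28.1% ± 2.12 (SD, n = 3) of alpha chain FPKM in siC, 17.0% ± 0.873 in siIGF2BP1 and 33.1% ± 1.01 in siSRF, whereas ITGAV made up 4.87% ± 0.0233, 11.9% ± 0.573 and 7.91% ± 0.151. The share of ITGA3 was 43.8% ± 2.24 in siC and 44.7% ± 1.59 in siIGF2BP1, with overlapping libraries, and 36.5% ± 0.944 in siSRF. Among beta chains ITGB1 held 67.1% ± 1.59, 72.2% ± 0.689 and 80.8% ± 0.905, and ITGB5 held 24.5% ± 0.948, 22.1% ± 0.543 and 14.7% ± 0.547, in siC, siIGF2BP1 and siSRF. ITGAV had 4.45 ± 0.00524 FPKM of ITGB3, ITGB5, ITGB6 and ITGB8 mRNA per FPKM of its own in siC, 3.79 ± 0.209 in siIGF2BP1 and 1.77 ± 0.0908 in siSRF. Shares of one sum depend on each other, and sums over genes weight each gene by the length used for its FPKM.

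**Figure D4:**
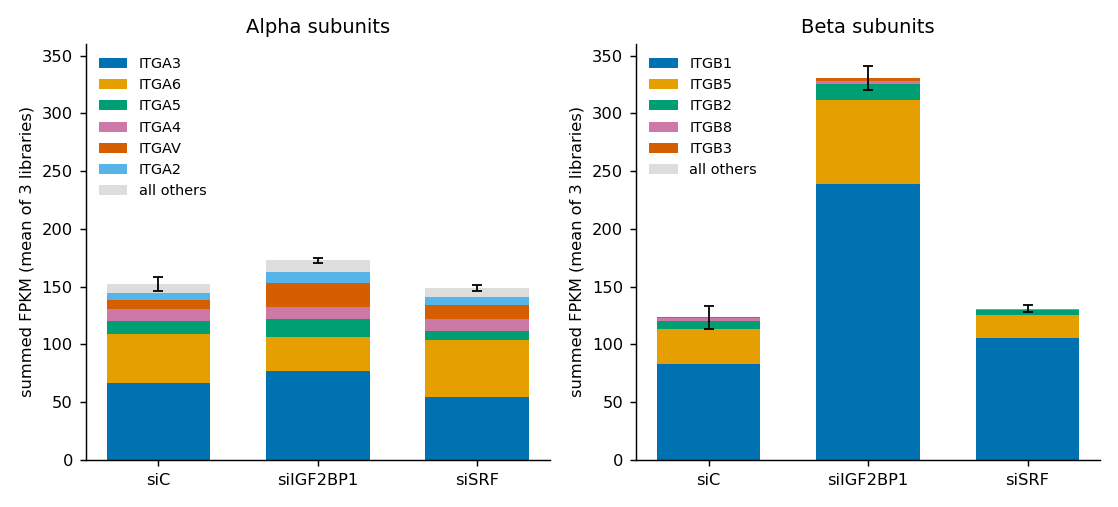
Summed FPKM of alpha subunits (left) and beta subunits (right), as means of 3 libraries per group, split by subunit, with error bars for the SD of the sum. The alpha sums lie between 149 and 173 FPKM, while the beta sum is 330 FPKM in siIGF2BP1 against 123 FPKM in siC and 131 FPKM in siSRF.

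Sequence next to the start sites is shown for ITGB1, ITGAV and ITGB5, the 3 members with the firmest rise in siIGF2BP1, because SRF acts at promoters and these genes moved apart in siSRF. The windows run from 250 bases before to 50 bases after the start of the canonical transcript and come from RefSeq on GRCh38.p14, each printed 5′ to 3′ on the strand of its gene. Capitals mark matches, on either strand, to the GC box GGGCGG and the ETS core CCGGAA, the letters bound by the SP and ETS families of factors. The ITGB1 window is chr10:32958181-32958480 (minus strand), the ITGAV window chr2:186589806-186590105 (plus strand) and the ITGB5 window chr3:124887316-124887615 (minus strand).
ITGB1: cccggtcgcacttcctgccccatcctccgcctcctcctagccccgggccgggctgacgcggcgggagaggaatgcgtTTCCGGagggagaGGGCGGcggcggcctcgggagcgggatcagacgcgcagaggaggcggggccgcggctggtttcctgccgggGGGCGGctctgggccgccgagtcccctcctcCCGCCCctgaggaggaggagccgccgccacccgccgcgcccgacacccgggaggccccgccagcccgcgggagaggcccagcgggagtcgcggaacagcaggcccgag
ITGAV: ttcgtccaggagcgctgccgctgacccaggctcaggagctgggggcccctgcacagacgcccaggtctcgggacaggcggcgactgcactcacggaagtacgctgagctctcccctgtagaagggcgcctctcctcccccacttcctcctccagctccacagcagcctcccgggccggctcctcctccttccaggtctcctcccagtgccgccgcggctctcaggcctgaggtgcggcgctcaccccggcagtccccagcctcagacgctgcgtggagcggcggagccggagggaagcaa
ITGB5: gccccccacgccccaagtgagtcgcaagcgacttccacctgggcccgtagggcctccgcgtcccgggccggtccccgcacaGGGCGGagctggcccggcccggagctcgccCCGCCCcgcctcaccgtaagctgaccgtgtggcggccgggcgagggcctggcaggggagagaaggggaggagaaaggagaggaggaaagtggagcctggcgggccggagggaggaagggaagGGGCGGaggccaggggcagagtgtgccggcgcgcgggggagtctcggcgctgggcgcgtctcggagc
ITGB1 held 3 GC boxes and 1 ETS core, ITGB5 held 3 GC boxes, and ITGAV held neither. A GC box was found in 45.0% and an ETS core in 17.2% of all 35116 RefSeq promoter windows of this length. The SRF motif, known as the CArG box, was found in 1.29% of these windows and in none of the 12 windows of the 7 members that have one, which also include ITGA2, ITGA5, ITGA6 and ITGB8. Of the canonical windows of these 7 members only that of ITGA5 held an AP-1 site TGANTCA. Such a site was found in 7.71% of all windows, so this single match is near the background. These matches describe the letters of the windows and were not tested against binding.

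In the genome (GRCh38, GENCODE release 44), ITGB1 lies on chromosome 10 from 32887273 to 33005792 on the minus strand, ITGAV on chromosome 2 from 186590010 to 186680901 on the plus strand, ITGB5 on chromosome 3 from 124761948 to 124901418 on the minus strand and ITGB3 on chromosome 17 from 47253827 to 47313743 on the plus strand. ITGA6 also lies on chromosome 2, from 172427354 to 172506459 on the plus strand. Annotated RNAs of the opposite strand share exon bases with some members, 401 bases between ITGB1 and ITGB1-DT and 132 between ITGB8 and ITGB8-AS1. The group means of ITGB1-DT were 3.27, 4.11 and 7.44 FPKM in siC, siIGF2BP1 and siSRF, and those of ITGB8-AS1 were 1.32, 2.14 and 0.593 FPKM. ITGA6 shares 174, 125 and 52 exon bases with RNAs of the opposite strand, whose group means reached 0.668 FPKM. The strand setting of the read counting is not given in the sources used here, so reads on such shared bases are uncertain. For ITGB8, whose own level was of the same order as that of ITGB8-AS1, the shared bases compare with a gene length of 15156 bases. ITGB3 shares 2266 exon bases with a readthrough gene on the same strand, which was listed at 0 in all groups.

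Of the 16 other integrin subunits in the tables, 7 passed the filter on low values. In siIGF2BP1, 2 rose and none fell, and in siSRF none rose and 1 fell, with median log2 fold changes of 0.37 and -0.03. Over all tested genes 3.55% rose and 3.57% fell in siIGF2BP1 and 6.85% and 5.34% in siSRF. The collagen receptor chain ITGA11, another ITGB1 partner, was at 0.251, 0.190 and 0.280 FPKM in siC, at 2.17, 2.21 and 2.05 FPKM in siIGF2BP1 and at 0.0129, 0.0303 and 0.0749 FPKM in siSRF. It rose in siIGF2BP1 (log2 fold change 2.73, standard error 0.226, adjusted p = 0.00103). In siSRF it was covered by 1 to 6 reads per library, below the pseudocount, so no size is given for its difference between the knockdowns. ITGA10, a collagen receptor chain as well, had the opposite order, with group means of 0.882 ± 0.0784, 0.316 ± 0.0174 and 1.98 ± 0.49 FPKM (SD, n = 3) in siC, siIGF2BP1 and siSRF. It was lower in siIGF2BP1 than in siSRF (log2 difference -2.30, adjusted p = 8.7e-04), but was not called against siC in either (adjusted p = 0.0217 and 0.0169).

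ITGB2, the beta chain of leukocyte integrins, was present at 7.55, 7.82 and 7.45 FPKM in siC, at 13.9, 13.3 and 15.0 FPKM in siIGF2BP1 (log2 fold change 0.88, standard error 0.0644, adjusted p = 6.9e-04) and at 4.66, 3.95 and 4.35 FPKM in siSRF (log2 fold change -0.80, standard error 0.082, adjusted p = 0.00142). Its alpha partners ITGAL and ITGAD were listed at 0 in all libraries and ITGAM and ITGAX at no more than 0.0208 FPKM. The antisense RNA ITGB2-AS1 was at 7.73, 5.97 and 3.44 FPKM in siC, siIGF2BP1 and siSRF, and reads of the pair cannot be told apart with certainty. ITGA4 and ITGAE, at 10.6 and 4.68 FPKM in siC, gave log2 fold changes between -0.03 and 0.20, none of them called.

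The matrix proteins that these receptors bind were listed by receptor. Of 8 tested collagens bound by ITGA2, 6 rose and none fell in siIGF2BP1, with a median log2 fold change of 1.28, and 2 fell and none rose in siSRF, beside 3.55% of all tested genes that rose in siIGF2BP1 and 5.34% that fell in siSRF. COL5A1 stood at 5.58, 5.91 and 5.96 FPKM in siC, rose to 38.7, 36.0 and 35.6 FPKM in siIGF2BP1 and fell to 2.47, 2.42 and 3.09 FPKM in siSRF. Its log2 fold change was 2.64 in siIGF2BP1 (adjusted p = 7.0e-05) and -1.11 in siSRF (adjusted p = 0.00158). COL1A1 and COL4A1 rose by 2.54 and 1.71 on the log2 scale in siIGF2BP1 (adjusted p = 8.5e-04 and 1.0e-04). COL5A2 rose in siIGF2BP1 (log2 fold change 0.95, adjusted p = 0.00178) and fell in siSRF (log2 fold change -0.73, adjusted p = 0.00157).

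Of the laminin chains, the ligands of ITGA3 and ITGA6, 9 were tested, of which 4 rose and 1 fell in siIGF2BP1 and 1 rose and 2 fell in siSRF, beside 3.55% and 3.57% of all tested genes in siIGF2BP1 and 6.85% and 5.34% in siSRF. LAMA3 rose in siIGF2BP1 from 1.37, 1.65 and 1.68 FPKM to 4.58, 4.40 and 4.04 FPKM (log2 fold change 1.42, adjusted p = 0.00136) and fell in siSRF to 0.549, 0.503 and 0.622 FPKM (log2 fold change -1.34, adjusted p = 0.00529). LAMB3, which joins LAMA3 in laminin-332, fell in siIGF2BP1 from 49.1, 49.8 and 55.8 FPKM to 33.6, 30.1 and 30.8 FPKM (log2 fold change -0.71, adjusted p = 0.00173). LAMA5 fell in siSRF (log2 fold change -2.33, adjusted p = 7.3e-04). LAMB2 rose in siIGF2BP1 (log2 fold change 0.54, adjusted p = 0.00431). LAMB1 rose in siSRF (log2 fold change 0.31, adjusted p = 0.00365), a single rise that is near the 6.85% of all tested genes.

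Of ligands recognized mostly through an RGD sequence by ITGA5 and ITGAV receptors, 4 of 11 tested rose and 1 fell in siIGF2BP1, beside 3.55% and 3.57% of all tested genes. In siSRF 1 of 10 tested rose and 2 fell, where 6.85% and 5.34% of all tested genes did, so the single rise is near the background. FBN1, fibrillin, rose in siIGF2BP1 from 2.71, 2.92 and 3.18 FPKM to 15.1, 13.9 and 14.8 FPKM (log2 fold change 2.28, adjusted p = 1.0e-04). THBS1, thrombospondin, rose with a log2 fold change of 1.28 (adjusted p = 1.0e-04). TGFBI rose in siIGF2BP1 (log2 fold change 1.08, adjusted p = 6.0e-04) and fell in siSRF (log2 fold change -1.32, adjusted p = 7.0e-04). FN1, fibronectin, fell in both knockdowns, from 8.22, 8.69 and 7.83 FPKM in siC to 4.81, 4.25 and 5.03 FPKM in siIGF2BP1 (log2 fold change -0.80, adjusted p = 0.00267) and to 3.29, 3.11 and 3.03 FPKM in siSRF (log2 fold change -1.36, adjusted p = 3.3e-04). CTGF, a matricellular protein, rose in siSRF (log2 fold change 1.13, adjusted p = 0.00429).

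Of the proteins that bind integrin tails inside the cell, 17 were tested. In siIGF2BP1, 2 rose and none fell, beside 3.55% and 3.57% of all tested genes. PARVA rose from 7.40, 6.96 and 7.49 FPKM to 12.9, 12.3 and 12.5 FPKM (log2 fold change 0.78, adjusted p = 7.0e-04) and LIMS1 by 0.64 on the log2 scale (adjusted p = 0.00283). Both are partners of the kinase ILK. In siSRF, 1 rose and 3 fell, beside 6.85% and 5.34% of all tested genes, and the single rise is near the 6.85% that rose. FERMT2, an integrin activator, rose with a log2 fold change of 0.45 (adjusted p = 0.00471), FLNA, the actin crosslinker filamin, fell from 119, 134 and 130 FPKM to 71.0, 76.8 and 78.0 FPKM (log2 fold change -0.76, adjusted p = 7.5e-04), and TNS3 fell with -0.39 (adjusted p = 0.00357). The median log2 fold change of this list was 0.01 in siIGF2BP1 and -0.03 in siSRF, near the 0.02 and 0.01 of all tested genes.

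The member with the largest called change on the log2(FPKM + 0.1) scale, ITGB3, was compared with 9657 protein-coding genes of at least 1 FPKM in every library. Over the 9 libraries the genes most like it in log2(FPKM + 0.1) were TRIM56 (r = 0.981), FAM160B1 (r = 0.980) and WNT5B (r = 0.979). WNT5B, a secreted WNT ligand, had group means of 4.26, 8.26 and 2.92 FPKM in siC, siIGF2BP1 and siSRF. The libraries of a group share their condition, and these values are descriptions of the pattern over 3 conditions only.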

How the data were processed

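Total RNA of ES-2 cells (rRNA-depleted, directional libraries) was sequenced in 9 libraries. According to the submitters' processing notes and methods, the authors clipped reads with cutadapt 1.14, aligned them with HISAT2 2.1.0 to GRCh38 and counted them with featureCounts 1.5.3, and with edgeR 3.18.1 deposited TMM-scaled FPKM values in 2 tables, with a log2 fold change, p-value and FDR per gene that were not used here. Both tables hold the same siC values. FPKM times gene length was a whole number of reads for 100% of values (tolerance 0.01).

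Genes averaging 0.1 FPKM or more in the 6 libraries compared were fitted as log2(FPKM + 0.1), which understates changes of low genes, with limma 3.58.1 (trend) in R 4.3.3. Tested on simulated data, this fit recovered the directions and sizes of changed genes averaging at least 10 reads. It called some unchanged genes that averaged under 10 reads and missed most true changes, far fewer of which were missed once genes of few reads were left out. A gene that was not called is thus not shown to be unchanged. Adjustment was by Benjamini-Hochberg over all tested genes, with calls at 0.01 or less. Partner ratios had two-sided exact permutation tests (SciPy 1.17.1). The 10 members, all lists and tests were chosen with earlier results of these data known. All members are named, and of every other list apart from the cell type markers up to 3 called genes per comparison with the largest change and a mean of at least 1 FPKM. Some values of genes not called, or not among these 3, are given as well. Most values of these lists between the knockdowns are not printed. Alternatives were pseudocounts of 1 and 0.01 FPKM, no filter or a filter of 1 FPKM, median-ratio rescaling, limma-voom on the reads, all 9 libraries in one fit, robust fitting, a threshold of 0.05, trends along gene length, a replicate block and leaving out each library. Trends along GC content and gene length, and a minimum mean of 10 reads, were added after the data were seen. Groups follow the sample labels. Annotation is GENCODE release 44, later than the Ensembl release the authors counted on. Intervals for low counts cover counting error only.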

Additional observations from a re-analysis of the deposited data

How the results depend on the processing

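No fold change of the 9 tested members changed sign in any of the 3 comparisons under any alternative. The member calls of siIGF2BP1 against siC numbered 7, 5 to 8 under the alternatives that kept all libraries without a block, 3 with the replicate block and 3 to 5 when 1 library was left out. For siSRF against siC they numbered 4, 8 with limma-voom, 6 with genes averaging at least 10 reads, 1 with the replicate block and 2 to 3 when 1 library was left out, and for siIGF2BP1 against siSRF 9, 6 with the block and 6 to 8 when 1 library was left out. ITGAV, ITGB1 and ITGB5 were called in siIGF2BP1 under every setting, and ITGB5 in siSRF, where ITGAV was lost with the block (adjusted p = 0.0105). The labels number the replicates but do not say whether libraries of the same number were handled together. Same-numbered libraries showed no shared deviation (correlations across genes of -0.0668 to 0.0177), which cannot show that they were handled apart. The block took the genes called in siIGF2BP1 from 1588 to 60 higher and 31 lower, and in siSRF to 257 higher and 244 lower. Over all genes limma-voom called 1914 higher and 1891 lower in siIGF2BP1 against 792 and 796, and 2780 and 2343 in siSRF against 1498 and 1167. Of the genes called by limma-trend, 67 of 1588, 87 of 2665 and 167 of 4460 in the 3 comparisons averaged under 10 reads, and calls at this depth are unreliable with this test, which is also insensitive while such genes are in the fit. Without them 1339 genes were higher and 1421 lower of 13888 tested in siIGF2BP1, and 2229 and 1842 of 13687 in siSRF. These are larger shares than the percentages of called genes printed beside the members and lists, which thus depend on this choice. The 9 tested members all averaged 11.0 reads or more. The ITGAV to ITGB3 ratio in siIGF2BP1 was the 1 of 144 alternative values of a ratio to change sign, at 0.37 with a pseudocount of 1 FPKM, which the low ITGB3 values set by construction. The alternatives of the ratios were the pseudocounts, the block and leaving out each library, and did not include the trends along GC content and gene length. ITGB3, ITGB4 and ITGA11 are limited by depth, with at most 10 reads per siSRF library.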

Other observations

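Membrane proteins that associate with integrins were a further list of 10 genes, all tested. In siIGF2BP1, 2 rose and 3 fell, and in siSRF 2 rose and 4 fell, beside 3.55% and 3.57% of all tested genes in siIGF2BP1 and 6.85% and 5.34% in siSRF. The tetraspanin CD82 rose in both, from 5.72, 5.44 and 5.70 FPKM in siC to 17.9, 16.3 and 18.9 FPKM in siIGF2BP1 (log2 fold change 1.64, limma adjusted p = 1.5e-04) and to 10.6, 11.0 and 11.4 FPKM in siSRF (log2 fold change 0.96, adjusted p = 3.8e-04). PLAUR, the urokinase receptor, fell in siIGF2BP1 from 24.2, 23.6 and 24.6 FPKM to 13.9, 13.6 and 13.0 FPKM (log2 fold change -0.84, adjusted p = 3.6e-04) and rose in siSRF to 42.6, 45.5 and 47.9 FPKM (log2 fold change 0.90, adjusted p = 3.4e-04). Between the knockdowns it differed by -1.74 (adjusted p = 1.4e-05), opposite to ITGB5. The tetraspanin CD9 fell in siIGF2BP1 (log2 fold change -1.04, adjusted p = 0.00532) and in siSRF (-0.70, adjusted p = 0.00685), and CD81 fell in siSRF (log2 fold change -0.72, adjusted p = 7.0e-04). SLC3A2, a transporter chain that binds beta tails, fell in siIGF2BP1 (log2 fold change -0.61, adjusted p = 0.00116) and was lower there than in siSRF (log2 difference -0.84, adjusted p = 7.3e-05).

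Of 7 tested genes for TGF-beta and latent TGF-beta binding proteins, 2 rose in siIGF2BP1 and 2 fell in siSRF, beside 3.55% and 5.34% of all tested genes. All of these were genes of binding proteins, while TGFB1, TGFB2 and TGFB3 were not called in either knockdown. LTBP3 was at 7.56, 8.03 and 6.93 FPKM in siC, at 11.0, 10.2 and 10.4 FPKM in siIGF2BP1 (log2 fold change 0.48, adjusted p = 0.00841) and at 3.55, 3.79 and 4.16 FPKM in siSRF (log2 fold change -0.95, adjusted p = 0.00132). LTBP2 rose in siIGF2BP1 (log2 fold change 0.60, adjusted p = 0.00327), and LTBP4 fell in siSRF (log2 fold change -0.68, adjusted p = 0.00917).

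ITGBL1, which carries repeats like those of beta chains but is no integrin subunit, was at 23.1, 25.8 and 24.0 FPKM in siC, at 41.1, 41.9 and 43.3 FPKM in siIGF2BP1 and at 25.3, 26.0 and 25.9 FPKM in siSRF. It was chosen after its values were seen and is given without a test.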
